A study of Mus musculus with 56 samples.

Results

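The CELF family (CUGBP Elav-like family) of RNA-binding proteins was described here through its 6 mouse genes, Celf1 to Celf6. The members were chosen by symbol in every deposited gene table, and by gene symbol in every deposited table of skipped exons. They are 6 of 23261 genes listed in at least 1 gene table. The series holds 56 RNA-seq libraries in 19 groups. It asks how loss of Fmr1, the gene of the RNA-binding protein FMRP, alters mRNA levels and splicing in mouse tissues and in a neuronal cell line. Cortex, hippocampus, cerebellum, liver, muscle and testis were each taken from wild-type (WT) mice and from mice labelled as Fmr1 knockout (KO), with 3 libraries of each. The labels give no strain, age or allele, and do not say whether libraries of a group come from different animals, so p-values measure the spread between libraries. N2a cells, a mouse neuroblastoma line, were transfected in a first experiment with non-targeting siRNA (siNT, 2 libraries) or siRNA against Fmr1 (siFmr1, 3 libraries). In a second experiment N2a cells received an siRNA together with a plasmid, with 3 libraries per group. The plasmid pcDNA went with siNT, with siFmr1 and with siRNA against Mbnl1 (siMbnl1). A plasmid for a FLAG-tagged MBNL1 was given in the other groups, its nuclear form (nMBNL1) after siFmr1 and its cytosolic form (cMBNL1) after siMbnl1. All N2a groups are 1 cell line, and each was transfected, the controls included.

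CELF proteins bind U- and G-rich RNA. In the nucleus they change which exons are kept in an mRNA, and in the cytoplasm they alter the stability and translation of bound mRNAs. CELF1 and CELF2 are made in many tissues, whereas CELF3, CELF4, CELF5 and CELF6 are best known from the nervous system. The muscleblind protein MBNL1 is another splicing regulator, and CELF1 and MBNL1 push many exons of muscle in opposite directions, which is best known from myotonic dystrophy.

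The exons whose inclusion differed in the co-transfected cells, described further down, are printed first. They were read from GENCODE vM21 transcripts on GRCm38 and are given 5′ to 3′ on the plus strand. The Celf1 line is the coding end of a 152-base exon, at chr2:90987746-90987816, and its capitals mark the first codon of the 1 annotated coding transcript that holds this exon. The Celf3 129-base exon (chr3:94485273-94485401) is also listed in a 126-base form, and the capitals are the bases that the shorter form lacks. The 142-base exon (chr3:94486794-94486935) has a length that is not a multiple of 3. The 254-base exon (chr3:94487135-94487388) extends a 150-base coding exon and is annotated in 1 noncoding transcript, and the capitals are the bases that the shorter form lacks. In the 141-base exon (chr3:94488139-94488279) the capitals mark a run of 16 CAG or CAA triplets.
Celf1 152-base exon, coding part: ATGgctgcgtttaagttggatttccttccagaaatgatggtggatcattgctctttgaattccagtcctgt
Celf3 129-base exon: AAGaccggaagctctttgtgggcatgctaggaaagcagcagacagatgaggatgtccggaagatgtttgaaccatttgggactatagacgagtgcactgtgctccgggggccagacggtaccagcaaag
Celf3 142-base exon: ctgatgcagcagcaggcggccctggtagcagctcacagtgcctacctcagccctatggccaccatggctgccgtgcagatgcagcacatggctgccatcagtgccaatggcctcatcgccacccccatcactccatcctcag
Celf3 254-base exon: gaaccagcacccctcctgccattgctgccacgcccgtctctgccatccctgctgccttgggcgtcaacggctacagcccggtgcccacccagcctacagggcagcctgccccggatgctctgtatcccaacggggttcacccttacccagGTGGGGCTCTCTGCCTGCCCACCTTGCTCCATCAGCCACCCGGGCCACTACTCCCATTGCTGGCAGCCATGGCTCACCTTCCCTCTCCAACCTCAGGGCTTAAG
Celf3 141-base exon: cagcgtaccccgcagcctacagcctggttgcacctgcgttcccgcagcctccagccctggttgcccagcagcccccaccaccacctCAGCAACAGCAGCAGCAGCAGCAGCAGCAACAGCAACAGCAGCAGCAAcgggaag

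The libraries held 26264368 to 41384652 counts in brain, 13230785 to 16168225 in liver, 13934559 to 15386794 in muscle, 13752391 to 15879775 in testis and 13273331 to 16268865 in the first N2a experiment. Fmr1 was lower in KO than in WT in every tissue, for example 28.0 to 34.5 against 120 to 130 CPM (counts scaled to a common library total) in cortex. In muscle the gap was small, with 8.05 to 10.3 CPM in KO against 12 to 17.6 CPM in WT. Markers of each tissue were present, with hepatocyte genes summing to 75245 to 98533 TPM (transcript share, corrected for length) in liver, muscle genes to 113641 to 127224 TPM in muscle and germ cell genes to 60662 to 66936 TPM in testis. In the first N2a experiment the library siNT replicate 2 and the library siFmr1 replicate 3 stood apart: Mbnl1 was at 46.6 and 59.9 CPM there, against 175 to 238 CPM in the other 3 libraries. Fmr1 was at 2.12 to 14.7 CPM with siFmr1 in that experiment, against 22.4 and 77.7 CPM with siNT, and did not pass the test there. In the second experiment Fmr1 was at 418 to 662 normalized counts in the siFmr1 groups against 2819 to 3604 with siNT. Mbnl1 was at 1408 to 1538 normalized counts with siMbnl1 and pcDNA, at 11032 to 13253 with nMBNL1 and at 16769 to 23339 with cMBNL1.

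On GRCm38, Celf1 (ENSMUSG00000005506.16) lies at chr2:90940382-91019497 on the plus strand and Celf2 (ENSMUSG00000002107.18) at chr2:6539694-7509563 on the minus strand. Celf3 (ENSMUSG00000028137.9) lies at chr3:94478295-94492198 (plus), Celf4 (ENSMUSG00000024268.16) at chr18:25477632-25754157 (minus), Celf5 (ENSMUSG00000034818.16) at chr10:81459227-81482709 (minus) and Celf6 (ENSMUSG00000032297.11) at chr9:59577917-59607292 (plus).

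All 6 genes were listed in brain, and Celf4 stood highest there in all 3 regions. Per length, in WT cortex, Celf4 was at 367 ± 9.30 TPM (SD, n = 3). Celf2 followed at 141 ± 2.72 TPM, Celf5 at 123 ± 5.44 TPM, Celf1 at 96.3 ± 2.21 TPM, Celf3 at 69.1 ± 3.67 TPM and Celf6 at 12.8 ± 0.735 TPM. No 2 neighbours in that order overlapped over the 3 WT cortex libraries. WT hippocampus had nearly the same order, with Celf4 at 341 ± 19.6 TPM, Celf2 at 149 ± 3.39 TPM, Celf5 at 128 ± 2.80 TPM, Celf3 at 102 ± 0.594 TPM, Celf1 at 97.2 ± 3.58 TPM and Celf6 at 19.1 ± 0.668 TPM. Celf3 and Celf1 lay next to each other there, at 101.4 to 102.6 and 94.8 to 101.3 TPM, and did not overlap. In WT cerebellum Celf4 was at 265 ± 13.8 TPM and Celf1, the member known from most tissues, came second at 118 ± 4.78 TPM. Celf2 was at 77.5 ± 1.77 TPM, Celf3 at 28.4 ± 3.01 TPM, Celf5 at 19.5 ± 0.821 TPM and Celf6 at 3.24 ± 0.327 TPM. As a share of the summed TPM of the family, Celf4 made up 45.4% in WT cortex, 40.8% in WT hippocampus and 51.8% in WT cerebellum, and Celf1 made up 11.9%, 11.6% and 23.1%.

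The summed level of the family was lower in testis, muscle and liver than in brain, and liver and muscle listed only Celf1 and Celf2. The summed level of the listed members was 810 ± 13.6 TPM in WT cortex, 837 ± 24.3 TPM in hippocampus and 511 ± 15.2 TPM in cerebellum. It was 68.3 ± 0.685 TPM in WT testis, 44.5 ± 0.671 TPM in muscle and 34.3 ± 6.19 TPM in liver. These tables were made separately, so levels set across them were not tested. In WT liver Celf1 was at 25.4, 33.9 and 36.7 TPM and Celf2 at 1.93, 2.5 and 2.41 TPM, so that Celf1 made up 93.3% of the pair. In WT muscle Celf1 was at 32.2 ± 1.96 TPM and Celf2 at 12.3 ± 2.0 TPM, and Celf1 made up 72.3%. Testis listed all 6 genes and had Celf3 on top, at 27.1 ± 1.63 TPM in WT. Celf1 followed at 17.9 ± 0.786 TPM, Celf5 at 11.2 ± 2.04 TPM, Celf2 at 5.59 ± 0.373 TPM, Celf6 at 4.43 ± 0.241 TPM and Celf4 at 2.14 ± 0.191 TPM. Celf4, the leading member in brain, was thus the lowest in testis. N2a cells also had Celf3 on top, at 155 and 62.3 TPM in the siNT libraries, then Celf1 at 88.4 and 31.7 TPM, Celf6 at 17.6 and 12.03 TPM, Celf5 at 12.4 and 3.65 TPM and Celf4 at 10.7 and 4.42 TPM. Celf2 was not listed in that table.

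**Figure D1:**
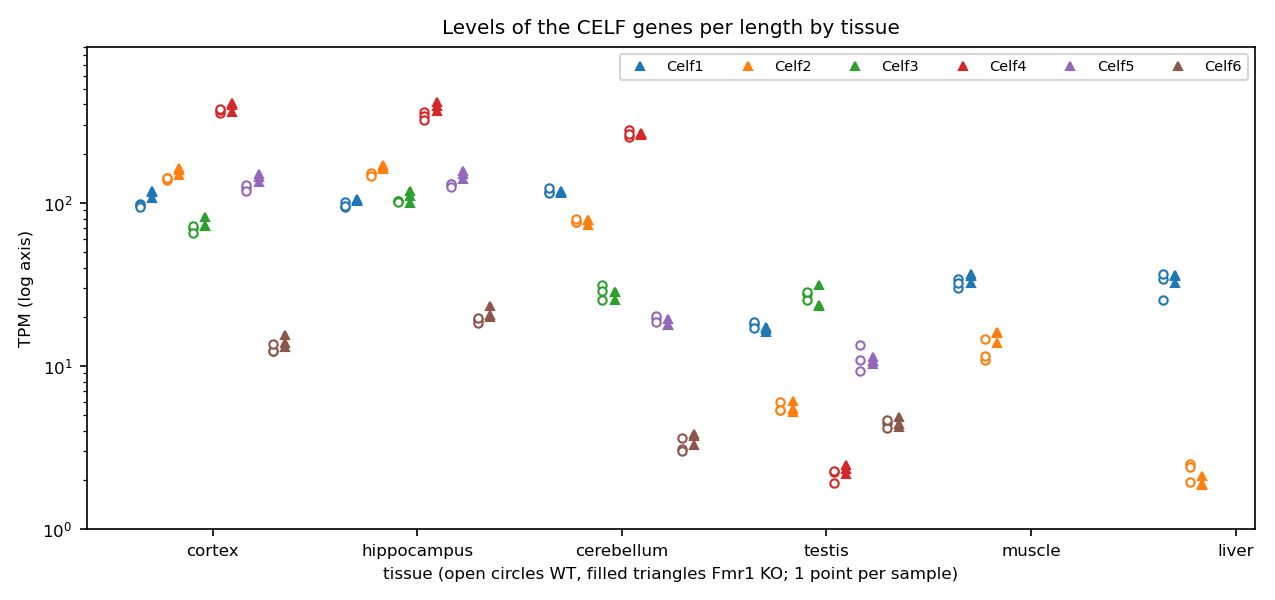
TPM on a log axis for each CELF gene in each tissue, with open circles for WT and filled triangles for Fmr1 KO libraries, 3 of each. Celf4 is the highest member in the 3 brain regions, Celf3 in testis and Celf1 in muscle and liver.

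Between WT brain regions, 5 of 6 members differed from cerebellum and Celf1 did not pass the test. The tests used edgeR's quasi-likelihood test on counts of the 9 WT brain libraries, with Benjamini-Hochberg adjustment over all genes tested and a threshold of 0.05. Cortex was higher than cerebellum in Celf5, with a log2 fold change of 2.78 (SE 0.059), Celf6 with 2.09 (SE 0.11), Celf3 with 1.39 (SE 0.078), Celf2 with 1.01 (SE 0.042) and Celf4 with 0.59 (SE 0.057). The largest adjusted p among these 5 was 2.99e-06 (Celf4). In CPM, Celf5 was at 205, 213 and 194 in WT cortex against 30.0, 31.4 and 28.1 in WT cerebellum. Celf1 had a log2 fold change of -0.09 (SE 0.048, adjusted p = 0.105). Since 67.9% of all 15239 genes tested differed between these regions, 5 of 6 is close to the background share. The median over the 6 members was 1.20 on the log2 scale against -0.02 over all genes.

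Hippocampus against cerebellum called the same 5 members, all higher in hippocampus, where 68% of genes were called. Log2 fold changes were 2.83 for Celf5, 2.68 for Celf6, 1.95 for Celf3, 1.08 for Celf2 and 0.48 for Celf4, and the value for Celf1 was -0.09 (adjusted p = 0.104). The members' median was 1.51 on the log2 scale against -0.01 for all genes. Cortex and hippocampus differed in 2 members, against 43.4% of all genes. Celf3 was lower in cortex by a log2 fold change of -0.55 (SE 0.075, adjusted p = 0.000138), and Celf6 by -0.58 (SE 0.094, adjusted p = 0.000482). In CPM, Celf3 was at 70.04, 70.6 and 63.6 in WT cortex and at 100.3, 98.5 and 101.1 in WT hippocampus. Celf1, Celf2, Celf4 and Celf5 lay between -0.08 and 0.11 on the log2 scale and did not pass. The cerebellum comparisons share the cerebellum libraries, and each region enters 2 comparisons.

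No CELF gene passed the test between Fmr1 KO and WT in cortex, and all 6 had values above 0. Celf1, which is known to recruit mRNA decay enzymes to its targets, had the largest value there. In KO cortex Celf1 was at 309, 334 and 333 CPM against 285, 276 and 268 CPM in WT. All KO libraries were above all WT libraries, with a log2 fold change of 0.24 (SE 0.052, unadjusted p = 0.00153, adjusted p = 0.0786). Celf5, one of the members best known from neurons, was at 219, 233 and 246 CPM in KO against 205, 213 and 194 CPM in WT, again without overlap. Its log2 fold change was 0.19 (SE 0.059, adjusted p = 0.127). Celf2 was at 502, 545 and 538 CPM in KO against 472, 483 and 480 CPM in WT, a log2 fold change of 0.14 (SE 0.051, adjusted p = 0.160). Celf3 (0.11), Celf6 (0.13) and Celf4 (0.06) had adjusted p of at least 0.381, and their ranges overlapped on this scale. With the 6 cortex libraries scaled alone, as in the test, Celf3 did not overlap either, which made 4 of 6 members, against 13.2% of all genes with every KO library above every WT library.

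By this test 0.0203% of 14802 genes were called in cortex, and 3110 genes had an unadjusted p under 0.05, among them 3 CELF genes (Celf1, Celf2 and Celf5). The median of the 6 members was 0.14 on the log2 scale and that of all genes 0.00. DESeq2, which called 6.25% of the genes, called Celf1 (adjusted p = 0.00551). A fit of all 18 brain libraries called 8.24% of genes, with Celf1 at an adjusted p of 0.00695, Celf2 at 0.0431 and Celf5 at 0.0432. The authors' deposited table gives Celf1 a log2 fold change of 0.227 (adjusted p = 4.72e-05), Celf2 0.136 (adjusted p = 0.0233) and Celf5 0.183 (adjusted p = 0.0316). Beside these values, the 1 listed blood marker of 2, Hbb-bs, a hemoglobin gene, was lower in KO cortex, at 383 to 393 against 433 to 550 TPM, and Hba-a1 was not listed. The sums of the neuron, excitatory and inhibitory neuron, astrocyte, oligodendrocyte, microglia and endothelial markers overlapped between genotypes. The part of blood in the CELF values was not tested. In bulk tissue, fewer cells of a type and less RNA per cell cannot be told apart.

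Hippocampus gave the same picture, with 6 of 6 members above 0 in KO, none called, and 5 of 6 with every KO library above every WT library. Of all 14843 genes tested, 0.209% were called and 9.36% had every KO library above every WT library. Celf5 was at 233, 260 and 247 CPM in KO against 214, 212 and 207 CPM in WT, a log2 fold change of 0.23 (SE 0.049, adjusted p = 0.164). Celf4, the most abundant member, was at 547, 620 and 575 CPM in KO against 535, 493 and 478 CPM in WT, with 0.21 (SE 0.066, adjusted p = 0.278). Both genes were higher in every KO library than in any WT library. Celf2 was at 556, 589 and 555 CPM in KO against 507, 509 and 495 CPM in WT, with 0.17 (SE 0.044, adjusted p = 0.222). Celf1 was at 306, 305 and 292 CPM against 273, 284 and 272 CPM, with 0.12 (SE 0.038, adjusted p = 0.275). Celf6, the least abundant member in brain, was at 20.2, 23.5 and 20.3 CPM against 19.3, 18.2 and 19.9 CPM, with 0.16 (SE 0.081, adjusted p = 0.486). Only Celf3, at 98.9, 109 and 115 CPM against 100.3, 98.5 and 101.1 CPM, overlapped (0.10, adjusted p = 0.534).

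The members' median in hippocampus was 0.16 on the log2 scale against 0.00 for all genes, and 4 members had an unadjusted p under 0.05 (Celf1, Celf2, Celf4 and Celf5), as did 1852 of all genes. DESeq2 called 1.75% of genes there and 3 members, namely Celf5 (adjusted p = 0.00370), Celf2 (adjusted p = 0.00923) and Celf4 (adjusted p = 0.0299). In the authors' deposited table Celf2 has a log2 fold change of 0.173 (adjusted p = 0.0119), Celf5 0.231 (adjusted p = 0.0214) and Celf4 0.215 (adjusted p = 0.0557). Of 14 marker lists with a listed gene 2 did not overlap between genotypes in the same libraries, beside 19.3% of all genes. All 4 of 4 oligodendrocyte markers were listed, and their sum was 4457 to 4654 TPM in KO against 5506 to 5800 TPM in WT. All 3 of 3 excitatory neuron markers were listed, with 1235 to 1439 TPM in KO against 1204 to 1227 TPM in WT. Their part in the CELF values was not tested. Ttr, the 1 of 4 hepatocyte markers listed in brain, ranged from 18.8 to 10299 TPM in WT and from 27.9 to 11141 TPM in KO hippocampus.

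In cerebellum 4 of 6 members were above 0 in KO, and none was called. Log2 fold changes of the 6 members ran from -0.07 (Celf5) to 0.18 (Celf6), every member's KO and WT libraries overlapped, and 0.226% of 14627 genes were called. No member had an unadjusted p under 0.05, and none was called by DESeq2. Celf1 was at 294, 300.3 and 296 CPM in KO cerebellum against 287, 290 and 308 CPM in WT, and Celf4 at 366, 369 and 356 against 383, 347 and 351 CPM. The difference between regions was tested as an interaction in 1 fit of the 18 brain libraries, where no member passed. The genotype effect in cortex minus that in cerebellum was 0.23 for Celf1 (SE 0.061, unadjusted p = 0.00172, adjusted p = 0.152), 0.26 for Celf5 (SE 0.082, adjusted p = 0.184) and 0.14 for Celf2 (SE 0.059, adjusted p = 0.277). Hippocampus minus cerebellum gave 0.30 for Celf5 (SE 0.082, unadjusted p = 0.00199, adjusted p = 0.699), 0.20 for Celf4 and 0.17 for Celf2. In each of these 2 interactions 3 members had an unadjusted p under 0.05, against 2349 and 823 of all 15504 genes, and the shares of all genes called were 0% and 0.00645%. Cortex minus hippocampus lay between -0.15 and 0.11 with none at an unadjusted p under 0.05, and 0% of genes were called.

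In the peripheral tissues no member was called, by edgeR's quasi-likelihood test or by DESeq2, and none had an unadjusted p under 0.05. The shares of all genes called were 0.411% in liver, 4.04% in muscle and 4.27% in testis. Celf2 in liver, at 10.7, 9.33 and 9.77 CPM in KO against 10.8, 12.4 and 12.7 CPM in WT, was lower in all KO libraries, with a log2 fold change of -0.26 (SE 0.15, adjusted p = 0.544). Of all genes in liver 8.47% were lower in all KO libraries. Liver Celf1 overlapped, at 119, 126 and 113 CPM in KO against 95.0, 121 and 132 CPM in WT (0.05, SE 0.14). Muscle Celf1 was at 114, 123 and 102.8 CPM in KO against 125, 114 and 119 CPM in WT (-0.08, SE 0.099), and muscle Celf2 at 63.9, 74.8 and 70.8 CPM against 59.0, 76.3 and 61.7 CPM (0.09, SE 0.12). Both muscle members overlapped between genotypes. Of 11 marker lists with a listed gene in muscle, 2 did not overlap. The microglia genes (4 of 4 listed) summed to 23.5 to 28.7 TPM in KO against 11.1 to 14.8 TPM in WT, and adipocyte genes (2 of 2 listed) to 24.6 to 79.2 against 10.8 to 15.1 TPM. In testis Celf1 was at 58.2, 60.8 and 56.4 CPM in KO against 63.0, 64.0 and 61.8 CPM in WT. This was lower in all KO libraries, with a log2 fold change of -0.11 (SE 0.072, adjusted p = 0.459). Of all genes in testis 9.75% were lower in all KO libraries. Of 15 marker lists 5 did not overlap there, 4 lower in KO and 1 higher, and their part was not tested. Celf3, the leading testis member, was at 48.3, 35.1 and 34.8 CPM in KO against 40.8, 38.5 and 44.1 CPM in WT (-0.07, SE 0.093). The testis values of Celf2 (0.01), Celf4 (0.12), Celf5 (-0.06) and Celf6 (0.03) also overlapped.

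**Figure D2:**
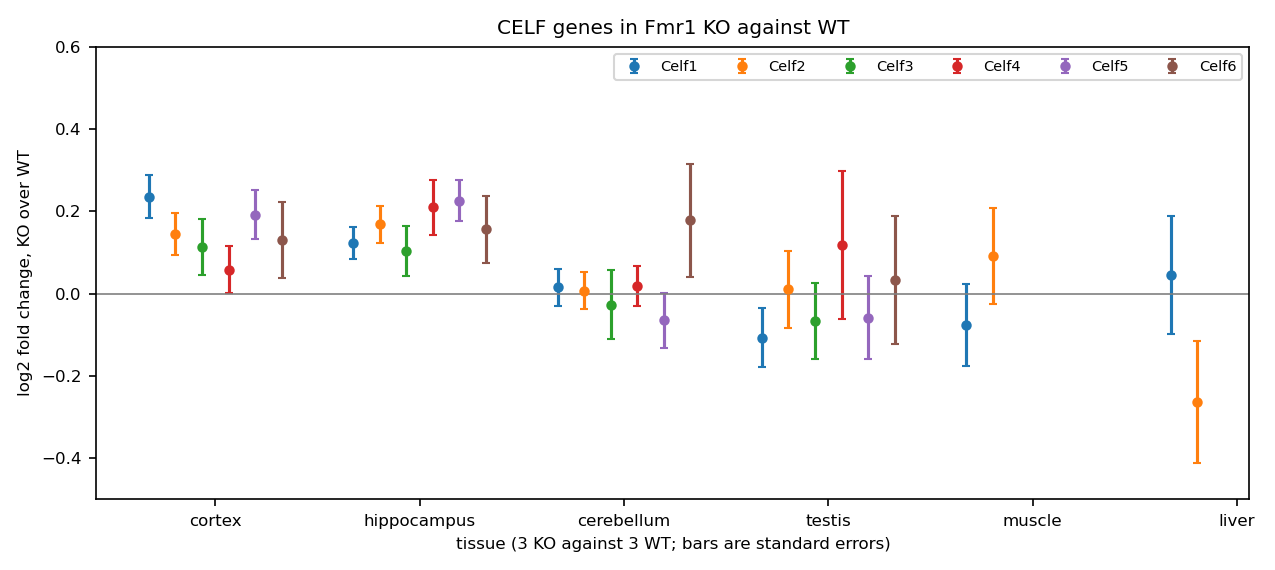
Log2 fold change of each CELF gene in Fmr1 KO over WT by tissue, 3 libraries against 3, with bars for the standard error of edgeR's fit. The 6 cortex values lie between 0.06 and 0.24 and the 6 hippocampus values between 0.10 and 0.23, whereas the cerebellum and testis values lie on both sides of 0.

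In the first N2a experiment no listed member was called, and no gene of 12187 was (0%), while 47 genes and none of the 5 members had an unadjusted p under 0.05. Celf3 was at 264, 280 and 263 CPM with siFmr1 against 233 and 154 CPM with siNT, which put all siFmr1 libraries higher, with a log2 fold change of 0.48 (SE 0.30, adjusted p = 1). Of all genes 3.63% had every siFmr1 library above every siNT library. Of the 5 libraries, siNT replicate 2 was the lowest in Celf3. Without that library the Celf3 value was 0.21, and without siFmr1 replicate 3 it was 0.49. Over all omissions of 1 library it ran from 0.21 to 0.80. The other members had 0.17 (Celf1), 0.28 (Celf4), 0.28 (Celf5) and -0.17 (Celf6), and Celf1 and Celf5 turned to -0.14 and -0.13 without siNT replicate 2. With another library left out they reached up to 0.57 and 0.85. DESeq2 called none.

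The co-transfection experiment gave values normalized by the authors, tested with limma on log2(value + 1) in 1 fit of all 15 libraries. The 6 genes passed the low-value filter, although Celf2 was close to absent: it was listed at 0 in 8 libraries and its highest value was 4.84 normalized counts. Celf3 rose with siFmr1 and pcDNA against siNT and pcDNA. It was at 10108, 9571 and 9247 normalized counts against 5629, 6354 and 8292, without overlap, and the log2 fold change was 0.53 (SE 0.11, adjusted p = 0.00170). Of all genes 22.9% had every siFmr1 and pcDNA library above every siNT library. Celf3 was also the member with the largest value in the first N2a experiment. No other member was called, while 37% of 16242 genes were. Celf5 had 0.26 (adjusted p = 0.179), with 1302, 1311 and 1330 normalized counts against 831, 1395 and 1136. Leaving out siNT pcDNA replicate 2 gave Celf5 a value of 0.44 (adjusted p = 0.0105). Over all omissions of 1 library Celf5 ran from 0.06 to 0.44, with adjusted p up to 0.717. Celf1 (0.01), Celf4 (0.09) and Celf6 (-0.03) overlapped the controls. In the same libraries the 5 of 5 neuron markers summed to 57046 to 58537 normalized counts against 44024 to 47091 with siNT, and the 4 of 4 neuroblastoma markers to 19420 to 20019 against 11396 to 14504. Of all 15 marker lists 9 were higher than siNT without overlap and 2 lower, namely the astrocyte markers (180 to 193 against 494 to 568) and the excitatory neuron markers (530 to 606 against 685 to 914). The endothelial markers (464 to 523 against 313 to 331) and the oligodendrocyte, microglia and inhibitory neuron markers were among the higher ones. Their part in the Celf3 value was not tested.

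With siMbnl1 and pcDNA, Celf5 and Celf6 fell, where 32.8% of genes were called. Celf5 was at 651, 640 and 809 normalized counts, below the 831, 1395 and 1136 of siNT, with a log2 fold change of -0.65 (SE 0.15, adjusted p = 0.00291). Celf6 was at 990, 825 and 997 normalized counts against 1066, 1280 and 1196, with -0.33 (SE 0.087, adjusted p = 0.00758). A fit of only these 2 groups gave Celf6 an adjusted p of 0.0886. Both genes lay below every siNT library, as did 18.3% of all genes. Celf3 was at 6091, 5614 and 6872 normalized counts and did not pass (-0.11, adjusted p = 0.487), nor did Celf1 (0.02) and Celf4 (-0.22). Of 15 marker lists 5 did not overlap with siNT in these libraries. The neuroblastoma markers (14703 to 15803 normalized counts against 11396 to 14504), the microglia markers (40.9 to 51.4 against 25.1 to 33.9) and the inhibitory neuron markers (38.8 to 59.99 against 21.9 to 35.9) were higher. The astrocyte markers (302 to 387 against 494 to 568) and the endothelial markers (233 to 246 against 313 to 331) were lower, and the part of these lists in the Celf5 and Celf6 values was not tested.

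Cells with siMbnl1 and cMBNL1 had the same 2 members called against siNT and pcDNA, where 33.7% of genes were called. Celf5 was at 736, 599 and 676 normalized counts (-0.71, SE 0.15, adjusted p = 0.00140) and Celf6 at 870, 920 and 944 (-0.37, SE 0.087, adjusted p = 0.00362). Both stayed below every siNT library, as did 19.1% of all genes. Of 15 marker lists 4 were higher than siNT without overlap, led by the neuroblastoma markers (16514 to 17254 normalized counts against 11396 to 14504). The astrocyte markers (302 to 365 against 494 to 568) and the endothelial markers (239 to 288 against 313 to 331) were lower, and the part of these lists was not tested. Against siMbnl1 and pcDNA, cMBNL1 cells had no member called, none with an unadjusted p under 0.05, and 2.24% of all genes called. Celf5 (-0.06), Celf6 (-0.04), Celf4 (0.00) and Celf3 (0.13) overlapped there. Celf1 was higher in all cMBNL1 libraries, as were 17.3% of all genes. It was at 7550, 7912 and 7730 against 6708, 7387 and 7189 normalized counts, and did not pass (0.12, SE 0.079, adjusted p = 0.410). In this comparison the neuroblastoma and oligodendrocyte markers were higher and the microglia markers lower without overlap.

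Cells with siFmr1 and nMBNL1 had Celf6 called against siNT and pcDNA, at 1061, 973 and 990 normalized counts (-0.23, SE 0.087, adjusted p = 0.0484), with 41.1% of genes called. This call ended without the filter on low values (adjusted p = 0.0523), in a fit of the 2 groups alone (0.148), with a replicate block (0.0587), and without nMBNL1 replicate 2 (0.141) or 3 (0.114) or siNT replicate 2 (0.143) or 3 (0.09996). Celf3 had 0.20 (adjusted p = 0.177) and Celf5 -0.27 (adjusted p = 0.154) there, and leaving out siNT pcDNA replicate 3 or 1 brought them to 0.36 (adjusted p = 0.00753) and -0.47 (adjusted p = 0.00446). Over all omissions of 1 library the weakest values were 0.08 for Celf3 and -0.10 for Celf5, with adjusted p up to 0.587 and 0.571. Of 15 marker lists 13 did not overlap between nMBNL1 and siNT, 10 of them higher with nMBNL1, and their part in the Celf6 value was not tested.

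The direct comparison of nMBNL1 with siFmr1 and pcDNA put all 6 members at or below 0 (Celf2, listed at 0 in every nMBNL1 library, among them), with none called and 1.76% of genes called. Celf5 was at 976, 946 and 811 normalized counts against 1302, 1311 and 1330, with -0.53 (SE 0.15, adjusted p = 0.0750). Celf3 was at 8359, 7611 and 7036 against 10108, 9571 and 9247, with -0.33 (SE 0.11, adjusted p = 0.136). Celf6 was at 1061, 973 and 990 against 1148, 1116 and 1186, with -0.19 (SE 0.087, adjusted p = 0.263). These 3 members had an unadjusted p under 0.05, as did 2901 of all genes, and lay below every siFmr1 and pcDNA library, as did 16.3% of all genes. A fit of the 2 groups alone, which called 17.2% of genes, called Celf3 (adjusted p = 0.00264) and Celf5 (adjusted p = 0.000516). Celf1 had 0.00 and Celf4 -0.23 (adjusted p = 0.379). The median over the members was -0.28 on the log2 scale against 0.00 over all genes. The neuron markers summed to 51040 to 57159 normalized counts with nMBNL1, against the 57046 to 58537 of siFmr1 and pcDNA. Without overlap, 5 of 15 marker lists were lower with nMBNL1, among them the neuroblastoma (17948 to 19218 against 19420 to 20019), excitatory neuron (433 to 491 against 530 to 606), inhibitory neuron (38.8 to 60.002 against 61.8 to 87.3) and oligodendrocyte markers (488 to 529.9 against 545 to 575). The astrocyte markers were higher (198 to 267 against 180 to 193). The part of these lists in the CELF values was not tested. The 4 comparisons with siNT share its 3 libraries, and the 2 direct comparisons share groups with them.

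**Figure D3:**
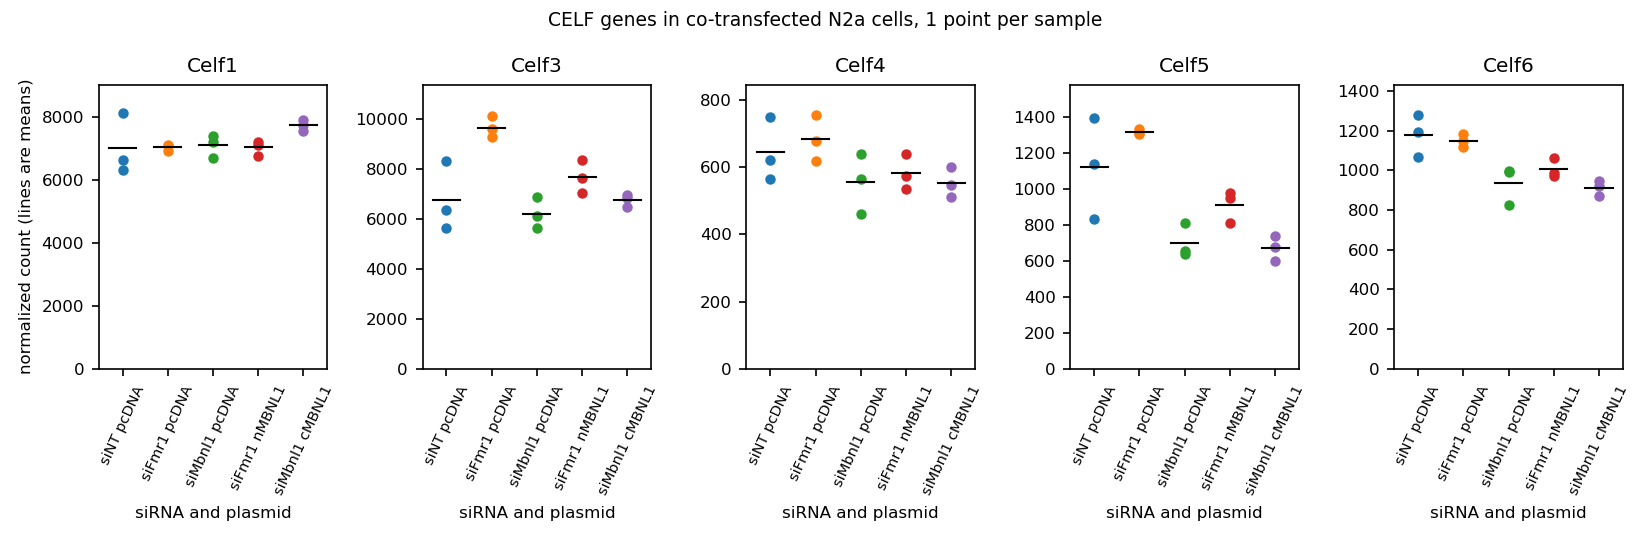
Normalized counts of 5 CELF genes in the 15 co-transfected N2a libraries, 1 point per library, with lines for the group means and axes from 0. Celf3 lies highest with siFmr1 and pcDNA (9247 to 10108), and Celf5 lies lowest in the siMbnl1 groups (599 to 809).

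Skipped-exon tables listed 319 events for the 6 genes over 11 tables, covering 49 distinct exons. An event is an exon with the 2 exons that flank it, and its inclusion level is the share of transcripts that keep the exon, from junction reads divided by the deposited form lengths. Of these, 260 events reached 20 junction reads per library on average in both sets and were tested with a quasi-binomial model, adjusted over all events of the table. Calls also needed a difference of at least 10 points. The tables name their groups of libraries only as set 1 and set 2. In the tissue tables it is not stated which set is KO, so differences there carry no genotype direction. Of the 67 tissue events 50 were tested and none was called. Only 1 event in cortex and 2 in liver had an unadjusted p under 0.05, as did 343 of 3931 and 1176 of 9996 of all events. No CELF event passed the deposited FDR with that difference. The shares of all events called were 0% in cortex, 0% in hippocampus, 0% in cerebellum, 0.13% in liver, 0.3% in muscle and 0.0873% in testis.

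In brain the tested event with most reads was an 84-base coding exon of Celf4 (chr18:25491141-25491224), kept at 92.3% in set 1 and 89.9% in set 2 in cortex and at 93.2% and 94.6% in hippocampus. In cerebellum it was a Celf4 144-base exon (chr18:25504139-25504282) at 99.3% and 100%. The deepest Celf2 events were a 49-base exon in cortex (100% and 98.8%), an 80-base exon in hippocampus (98.7% and 99.2%) and a 144-base exon in cerebellum (99.1% and 96.9%). The Celf3 129-base exon printed above was kept at 99.0% and 97.0% in cortex, 100% and 98.9% in hippocampus and 95.4% and 96.1% in cerebellum. Celf1's deepest event in cortex was a 186-base exon, at 99.0% and 95.2%, and Celf5's in hippocampus an 83-base exon, at 100% and 99.4%. None of these brain events passed, with adjusted p of at least 0.452.

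Peripheral tissues kept the Celf1 186-base exon at 98.5% and 93.2% in liver (adjusted p = 0.163), 98.0% and 96.9% in muscle and 97.2% and 98.7% in testis. The Celf2 144-base exon was kept at 83.3% and 93.2% in muscle (adjusted p = 0.572) and 88.4% and 85.2% in testis. Testis also had the Celf3 150-base exon at 99.0% and 100%, and the Celf6 150-base exon at 84.2% and 96.0% (adjusted p = 0.513). The Celf6 difference of -11.8 points is larger than the minimum difference, but 188 junction reads over 6 libraries did not separate it from the spread.

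Inclusion differed between tissues for some exons, as a description across tables that were made separately and not tested. The Celf1 152-base exon joined to the first exon was kept at a median of 64.9% in the 6 liver libraries (45.5% to 80.6%) and 58.8% in testis (40% to 72.4%). It was kept at 29.9% in muscle (21.8% to 32.7%), 15.8% in the first N2a experiment (13.2% to 24.5%) and 11.3% in the co-transfected cells (6.2% to 20.8%). The liver and N2a ranges do not overlap. This is the exon whose first codon is in capitals above. It is held by 3 annotated transcripts, 1 of them coding, and is exon 2 of the coding one. The Celf2 144-base exon had medians of 96.7% in cortex, 96.9% in hippocampus, 98.7% in cerebellum, 88.8% in muscle and 85.3% in testis, with wide ranges in muscle (74% to 100%) and testis (75% to 100%). The Celf6 150-base exon was at 94% in testis (77.8% to 100%), 65.7% in the first N2a experiment (47.9% to 83.5%) and 59.9% in the co-transfected cells (44.4% to 71.4%). For the Celf4 84-base exon at chr18:25491141-25491224 the medians were 91.9% in cortex, 94.1% in hippocampus, 94.9% in cerebellum and 74.4% in the co-transfected cells (54.6% to 100%).

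**Figure D4:**
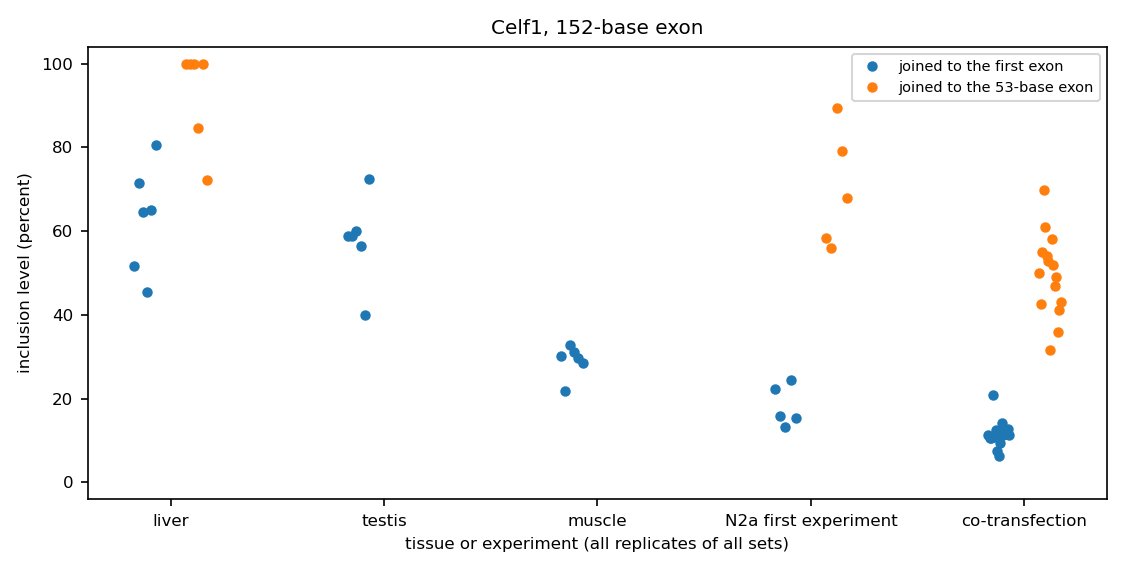
Inclusion level in percent of the Celf1 152-base exon in every library of the tables that list it, joined to the first exon (blue) or to a 53-base exon (orange). Joined to the first exon, the liver libraries lie at 45.5% to 80.6% and the co-transfected N2a libraries at 6.2% to 20.8%.

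In the first N2a experiment 23 of 32 events were tested, none was called (0% of all 22614 events) and 3 had an unadjusted p under 0.05. Of all events 1392 did so. Set 1 has 3 libraries and set 2 has 2, as siFmr1 and siNT have in the labels. The authors' deposited table gives 2 overlapping Celf4 exons at its FDR threshold, an 81-base exon (chr18:25496222-25496302) with a difference of 21.3 points (deposited FDR = 0.00529) and an 84-base form of it (to base 25496305) with 43 points (deposited FDR = 0.00142). The 81-base exon was kept at 100%, 94.6% and 100% with siFmr1 against 77.2% and 76.5% with siNT. The sets did not overlap, yet only 5 and 3 skipping reads in the siNT libraries and 1 in the siFmr1 libraries stand behind this, and the re-test gave an adjusted p of 0.520. The 84-base form had too few reads for the re-test. The deepest events of the other members were the Celf1 186-base exon (95.9% and 94.1%), a Celf3 137-base exon (98.5% and 98.9%), the Celf5 83-base exon (96.0% and 93.8%) and the Celf6 150-base exon (65.7% and 71.0%), all with adjusted p of at least 0.523.

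The co-transfection experiment has 4 tables of skipped exons, each a comparison of 2 sets of libraries. The labels tie the first to siNT and siFmr1 with pcDNA (here the pcDNA comparison) and the others to siMbnl1 with pcDNA, to siFmr1 with nMBNL1 and to siMbnl1 with cMBNL1 (here the siMbnl1, nMBNL1 and cMBNL1 comparisons). Set 2 held identical inclusion reads in the pcDNA, siMbnl1 and cMBNL1 comparisons, and set 2 of the nMBNL1 comparison was identical to set 1 of the pcDNA comparison. The 2 sets of the pcDNA comparison are therefore the reference sets of the others, but which of them is siNT and which is siFmr1 is not stated. Set 1 of the siMbnl1, nMBNL1 and cMBNL1 comparisons is then the group the labels name. The reference set of the cMBNL1 comparison had neither siMbnl1 nor an MBNL1 plasmid, so the parts of siRNA and plasmid cannot be told apart there. The same holds for the nMBNL1 comparison if its reference set is siNT.

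With siMbnl1 and cMBNL1 the Celf1 152-base exon was kept less often than in the reference set when joined to the 53-base exon of the 5′ UTR (chr2:90954289-90954341). Its inclusion was 35.8%, 41.1% and 43.1% against 69.8%, 61.1% and 54.1% in the reference set, without overlap. The difference was -21.6 points (adjusted p = 0.0208) on 76 to 113 inclusion and 60 to 81 skipping reads per cMBNL1 library. Leaving out cMBNL1 set replicate 1, 2 or 3 ended the call (adjusted p = 0.213, 0.233 and 0.164). The authors' deposited table gives it -21.7 points (deposited FDR = 0.000984). The share of all 59093 events called in that comparison was 0.828%. Joined to the first exon instead, the same exon was at 12.1% and 14.7% and did not pass there (adjusted p = 0.686). The junction to the 53-base exon was at 49.2% and 61.7% in the pcDNA comparison, 47.5% and 61.7% in the siMbnl1 comparison and 49.3% and 49.2% in the nMBNL1 comparison, with adjusted p of at least 0.337. Joined to the first exon, the exon was at 7.5%, 6.2% and 9.4% with siMbnl1 and pcDNA against 20.8%, 10.8% and 12.6%, a difference of -7.00 points (adjusted p = 0.0590).

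Of the Celf3 events, 1 of 26 tested was called with nMBNL1 and 0 of 24 with cMBNL1. The called event was the 254-base exon in siFmr1 and nMBNL1 cells. Joined to the exon ending at base 94486667, it was kept at 17.2%, 37.8% and 54.5% against 76.5%, 88.9% and 84.2%. The difference of -46.7 points passed (adjusted p = 0.00361), and the authors' deposited table gives the same size (deposited FDR = 0.000323). The sets do not overlap, but each library had only 5 to 32 inclusion and 1 to 14 skipping reads at this event. The call ended when nMBNL1 replicate 1 (adjusted p = 0.132) or 3 (adjusted p = 0.0644) was left out, and the event fell under the read minimum without nMBNL1 replicate 2 or reference replicate 3. The share of all 54552 events called in the nMBNL1 comparison was 0.676%.

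By adjusted p alone, with no minimum difference, 4 of the 26 tested Celf3 events of the nMBNL1 comparison passed, all lower with nMBNL1, where 2.92% of all events passed in that direction. The 142-base exon was kept at 97.4%, 96.8% and 98.4% against 99.6%, 99.8% and 99.5% (adjusted p = 0.00442). The 141-base exon with the CAG and CAA run was kept at 99.0%, 98.3% and 99.0% against 100%, 100% and 99.9% (adjusted p = 1.66e-07), on 9 to 24 skipping reads per nMBNL1 library against 0 to 1. The 150-base exon was at 97.3%, 96.4% and 98.0% against 99.5%, 99.8% and 99.4% (adjusted p = 0.00817). These differences are small, at 1.21 to 2.26 points beside the 46.7 points of the 254-base event, and the sets do not overlap. The 142-, 150- and 254-base events share the same skipping reads, which join base 94486667 to 94487787, so they are not separate observations. Of all 26 tested events 21 were lower with nMBNL1, against 59.6% of all events.

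In siMbnl1 and cMBNL1 cells all 24 tested Celf3 events were lower than in the reference set, where 66.4% of all events were lower. By adjusted p alone 9 events over 6 exons passed, against 2.65% of all events in that direction, and none reached 10 points. These 9 events rest on the reads of 5 skipping junctions, so they are not separate observations. The 129-base exon was kept at 92.5%, 92.4% and 93.8% against 99.7%, 97.3% and 98.3% (-5.53 points, adjusted p = 0.00117), with 55 to 60 skipping reads per cMBNL1 library and 2 to 23 in the reference set. Its 126-base form, which shares those reads, was at 90.9%, 90.9% and 92.1% against 99.5%, 96.5% and 97.8%. The 142-base exon was at 96.8%, 94.3% and 93.1% against 99.8%, 100% and 99.8% (-5.10 points, adjusted p = 0.000564). The 141-base exon was at 97.7%, 98.4% and 97.0% against 99.6%, 99.8% and 100% (-2.11 points, adjusted p = 0.00121). None of these exons overlapped between the sets. The 150-base exon between bases 94486667 and 94487787 was at 95.7%, 91.3% and 90.9% against 99.0%, 100% and 99.6%, and the 254-base form after the 142-base exon at 92.6%, 87.8% and 91.6% against 97.4%, 98.0% and 98.1% (-7.20 points, adjusted p = 0.00118).

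**Figure D5:**
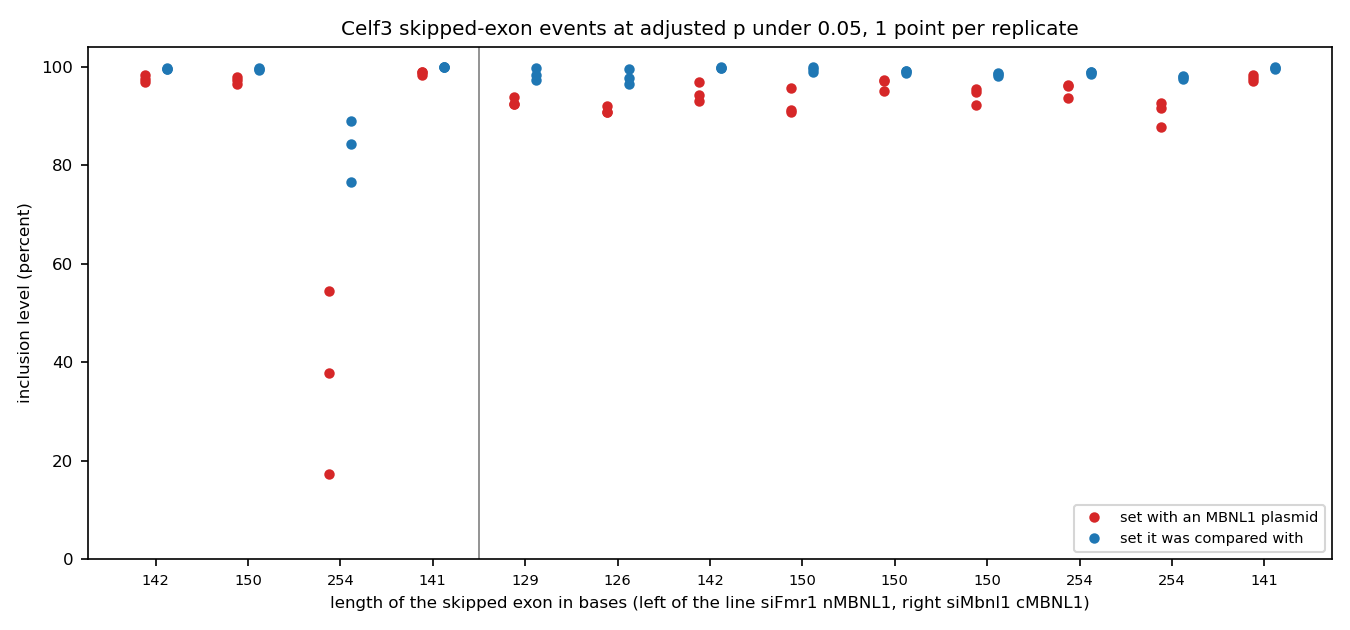
Inclusion level in percent of the Celf3 events at an adjusted p under 0.05, 1 point per library, with nMBNL1 cells left of the line and cMBNL1 cells right of it. The MBNL1 groups (red) lie below their reference sets (blue) in each event, and only the 254-base event on the left differs by more than 10 points.

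Other events of the authors' deposited table with at least 10 points were thinly covered and not tested here. With cMBNL1 the 254-base exon joined to base 94486667 was kept at 20%, 32.3% and 21.1% against 71.4%, 100% and 91.3% (-63.1 points, deposited FDR = 1.34e-10), and joined to base 94485576 at 60%, 90.9% and 53.8% against 100% in all 3 (-31.8 points, deposited FDR = 9.68e-05). The first of these is the event called with nMBNL1, and in the pcDNA and siMbnl1 comparisons it was kept at 83.2% and 87.6%, and at 87.6% in both sets, also under the read minimum. The 142-base exon joined to base 94485576 had -10 points (deposited FDR = 0.00946) with cMBNL1 and -18.1 points (deposited FDR = 0.0221) with siMbnl1 and pcDNA, where it rests on 1 library at 45.7% beside 2 at 100%. A Celf3 144-base exon had -14.7 points with cMBNL1 (deposited FDR = 0.0332), resting on 1 library at 56%.

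The pcDNA and siMbnl1 comparisons had no CELF event called by the re-test, with 0.839% and 0.536% of all events called. An unadjusted p under 0.05 was found for 4 of 42 tested events in the pcDNA comparison and for 6 of 37 in the siMbnl1 comparison. Over all events it was found for 7013 of 47665 and for 7184 of 51532. Celf3 events were lower in set 1 in 12 of 13 with siMbnl1 and in 15 of 18 in the pcDNA comparison, against 60.1% and 46.6% of all events. The 13 and 18 events cover 8 and 12 distinct exons, so they are not separate observations. The largest tested Celf3 difference with siMbnl1 was that of the 126-base form of the 129-base exon printed above, at 93.3%, 91.5% and 95.5% against 99.5%, 96.5% and 97.8% (-4.48 points, adjusted p = 0.0698). Leaving out reference replicate 1 in the siMbnl1 comparison called the Celf6 150-base exon at -17.4 points (adjusted p = 0.0471).

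Apart from the Celf3 exons already given, the deepest tested event of each member did not pass in the co-transfection comparisons. The Celf1 186-base exon was at 95.4% and 93.2% in the pcDNA comparison, 91.6% and 93.2% with siMbnl1 and 93.4% and 93.2% with cMBNL1, and a 162-base exon of Celf1 at 99.9% and 100% with nMBNL1. The Celf3 141-base exon was at 99.98% and 99.8% in the pcDNA comparison and 99.6% and 99.8% with siMbnl1. For Celf4 the 81-base exon was at 92.9% and 88.5% in the pcDNA comparison, 91.9% and 88.5% with siMbnl1 and 96.7% and 92.9% with nMBNL1, and the 144-base exon at 95.3% and 100% with cMBNL1. A 129-base exon of Celf5 was at 99.1% and 100% in the pcDNA comparison, 99.4% and 100% with siMbnl1 and 100% and 99.1% with nMBNL1, and its 83-base exon at 99.4% and 99.6% with cMBNL1. The Celf6 150-base exon was at 58.1% and 62.8% in the pcDNA comparison (adjusted p = 0.482). A Celf6 129-base exon was at 99.7% and 100% with siMbnl1, and a 156-base exon at 98.4% and 100% with nMBNL1 (adjusted p = 0.101) and 98.6% and 100% with cMBNL1.

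Over the 18 brain libraries Celf2 to Celf6 followed the regions together, and Celf1 did not. Pearson's r of log2(CPM + 1) between pairs of Celf2 to Celf6 was 0.92 to 0.995, and between Celf1 and each of the others -0.0779 to 0.103. These values describe 18 libraries that share 3 regions, so they mostly restate the differences between regions. Among 11556 genes with a mean of at least 5 CPM, the 2 most like Celf1 were Tmem87b (r = 0.887) and Aasdhppt (r = 0.866). Celf2 was most like Erc2, a presynaptic scaffold gene (0.997), and Celf3 most like Dbn1, the gene of the actin-binding protein drebrin, and Nsmf (both 0.995). The closest genes to Celf4 were Asxl3 and Lrrfip1 (0.979 and 0.978), to Celf5 Dlx1as and Rimbp2 (both 0.998) and to Celf6 the sodium channel subunit gene Scn3b and the carboxypeptidase gene Cpe (both 0.996).

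Other genes of CELF biology were read from 3 lists: 17 splicing regulators that act with or against CELF proteins, 6 decay and kinase partners of CELF1, and 19 genes with exons or mRNAs that CELF proteins bind. None of the listed genes was called between Fmr1 KO and WT in cortex, hippocampus, cerebellum, liver or muscle, or in the first N2a experiment. In cortex the median log2 fold changes of the 3 lists were 0.07, -0.13 and -0.07, with 17 of 17, 6 of 6 and 17 of 19 genes tested. In testis, where 4.27% of all genes were called, 2 of 15 tested splicing regulators fell in KO. They were the neuronal RNA-binding protein genes Elavl3 (-0.85, SE 0.22, adjusted p = 0.0187) and Nova2 (-0.42, SE 0.13, adjusted p = 0.0472). Of 15 marker lists 5 did not overlap between genotypes in testis. The neuron, excitatory neuron, hepatocyte and neuroblastoma markers were lower in KO, and the endothelial markers higher. The neuron markers (2 of 5 listed) summed to 28.6 to 32.4 TPM in KO against 32.8 to 45.4 TPM in WT, and the part of these lists was not tested.

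Between WT brain regions the shares of all genes called were 43.4% for cortex against hippocampus, 67.9% for cortex against cerebellum and 68% for hippocampus against cerebellum, and the lists are read beside them. Of the 17 splicing regulators 6 were higher and 3 lower in cortex than in hippocampus, led by the neuronal regulator Nova1 (1.15) and by Elavl4 (0.88). Against cerebellum 4 were higher and 6 lower in cortex, and 3 higher and 9 lower in hippocampus. Among the partners of CELF1, the kinase gene Prkca was lower in cortex than in hippocampus (-0.60) and higher in cortex than in cerebellum (1.46), and Gsk3b was higher in cortex than in hippocampus (0.29). Akt1 (-0.22) and Ccnd3 (-0.62) were lower in cortex than in hippocampus. The counts for the 17 tested genes bound by CELF proteins were 4 higher and 2 lower, 5 and 6, and 7 and 7 in these 3 comparisons.

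In co-transfected cells, the shares of all genes called against siNT and pcDNA were 37% with siFmr1 and pcDNA, 32.8% with siMbnl1 and pcDNA, 41.1% with nMBNL1 and 33.7% with cMBNL1, and the counts of listed genes are read beside them. The splicing regulators against siNT and pcDNA had 4 called higher and 5 lower with siFmr1 and pcDNA, and 1 and 4 with siMbnl1 and pcDNA. The counts were 4 and 6 with nMBNL1, and 4 and 4 with cMBNL1, of 17 tested each time, and Mbnl1 itself, the target of an siRNA and the transfected gene, is 1 of the 17. Nova1 fell in all 4 groups, by log2 fold changes of -0.89, -0.44, -0.92 and -0.47 with siFmr1 and pcDNA, siMbnl1 and pcDNA, nMBNL1 and cMBNL1. Qk, the gene of the RNA-binding protein quaking, fell in the same 4 groups (-0.59, -0.35, -0.61 and -0.34). Elavl4, a gene of neuronal Hu proteins, rose in the siFmr1 groups (0.61 and 0.57) and fell in the siMbnl1 groups (-0.31 and -0.34). With siMbnl1 and pcDNA, Rbfox2 was the 1 regulator that rose (0.21, adjusted p = 0.0470).

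Among the 6 decay and kinase partners, the deadenylase gene Parn fell with siFmr1 and pcDNA (-0.19, adjusted p = 0.0391), siMbnl1 and pcDNA (-0.26, adjusted p = 0.00943) and nMBNL1 (-0.20, adjusted p = 0.0281). Prkca fell in both siFmr1 groups (-0.24 and -0.36), and Akt1 rose with cMBNL1 (0.32, adjusted p = 0.000723). Of the 19 genes bound by CELF proteins, 6 rose and 3 fell with siFmr1 and pcDNA, 4 rose and 7 fell with siMbnl1 and pcDNA, 5 rose and 6 fell with nMBNL1, and 5 rose and 5 fell with cMBNL1, where 37%, 32.8%, 41.1% and 33.7% of all genes were called. The cardiac troponin gene Tnnt2, a classic splicing target of CELF and MBNL proteins, rose in all 4 groups, by 0.83, 2.02, 0.83 and 1.33 in the order above.

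The listed genes that passed in the direct comparisons are read beside the shares of all genes called, 1.76% with nMBNL1 and 2.24% with cMBNL1. Between nMBNL1 and siFmr1 with pcDNA, Mapt, the gene of the microtubule protein tau, fell by 0.57 on the log2 scale (SE 0.10, adjusted p = 0.0174), and the transfected Mbnl1 was higher by 1.41. Between cMBNL1 and siMbnl1 with pcDNA, the amyloid precursor gene App rose (0.43, SE 0.087, adjusted p = 0.0236), Tnnt2 fell (-0.69, SE 0.13, adjusted p = 0.0172), and Mbnl1 was higher by 3.72. The other listed genes did not pass in these 2 comparisons.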

How the data were processed

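RNA-seq of 56 libraries in 19 groups was used. The authors deposited gene counts and TPM for the tissues and the first N2a experiment, per the file headers, with log2 fold changes and adjusted p-values of their own comparisons. For the co-transfection experiment the authors deposited normalized counts, a signal per gene on which no count test was run. The skipped-exon tables deposited by the authors hold junction counts per library, inclusion levels as a fraction, and p-values with FDR, in the form rMATS gives. The submitters' processing notes name Bowtie2 2.3.5, CASAVA, DESeq2 1.16.1, FastQC 0.11.8, RSEM 1.3.1, STAR 2.6.1, Trimmomatic 0.39 and the builds GRCm38 and mm10, with no role or order. Per the labels, libraries were poly(A)-selected and directional in brain, and the N2a co-transfection libraries were directional too.

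Counts were tested with edgeR 4.0.16 (TMM scaling, the low-count filter of filterByExpr, quasi-likelihood test, Benjamini-Hochberg adjustment, threshold 0.05) in R 4.3.3, and compared with DESeq2 1.42.0. CPM in the text uses TMM-scaled library sizes over all brain libraries, or over the table elsewhere. Normalized counts were tested with limma 3.58.1 on log2(value + 1), for genes whose mean over the 15 libraries was 1 or more. A fold change on that scale understates the change of low genes. Skipped exons were re-tested with a quasi-binomial model with moderated dispersion on junction counts, for events with a mean of at least 20 reads per library in both sets, and a call needed a difference of 10 points. The scripts were tested on simulated data. The alternatives were another scaling, filter, pseudocount, read minimum and tool, the replicate block, and leaving out each replicate.

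The 6 members, the gene lists and the tests were chosen with earlier results of these data known. All members are named, with the exons called or found by the deposited FDR and otherwise the tested event with most reads per gene and table. The 2 genes most like each member were taken by Pearson correlation, and 1 of them is not reported here. There were 4 value columns that match no sample's labels and were not used, and 4 rows with repeated gene names were left out. The co-transfection counts summed to 31955037 to 33273189 per library, and their read depth is unknown. Reads of a gene and of an overlapping gene may have been split or shared by the authors' counting. Intervals of counting error are not given, since every value has replicate libraries.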

Additional observations from a re-analysis of the deposited data

Results flagged for a closer look

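In 4 pairs of tissues a CELF gene had every Fmr1 KO library above every WT library in 1 tissue and every KO library below every WT library in the other. The difference was not tested in any of these pairs, since the tissues were sequenced and tabulated separately, and none of the single effects was called. For Celf1, the KO effect in cortex (0.24) minus that in testis (-0.11) was 0.34 on the log2 scale, and the effect in hippocampus (0.12) minus that in testis was 0.23. For Celf2, the effect in cortex (0.14) minus that in liver (-0.26) was 0.41, and the effect in hippocampus (0.17) minus that in liver was 0.43. Of all genes tested in both tissues, the same pattern of every KO library on opposite sides, in either order, was shown by 1.47% for cortex and testis, 1.57% for hippocampus and testis, 1.41% for cortex and liver and 1.31% for hippocampus and liver. Liver Celf2 was low, at 9.33 to 12.7 CPM.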

How the results depend on the processing

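Of 355 alternatives of the 30 counts of called CELF genes or exons, 324 stayed within 1.5 times the reported count and 31 did not. Of 1412 alternatives of single genes or exons 1366 kept their direction and side of the threshold, 19 lost a call, 27 gained one and 0 reversed; 74 values called in neither fit changed sign. KO calls rose from 0 to 1 in cortex and 3 in hippocampus with DESeq2, and to 3 in cortex with all 18 brain libraries. Asking also for an absolute log2 fold change of 1 or more left 0 calls in each of the 4 comparisons with siNT and pcDNA. Fitting only the compared groups left 1 for siMbnl1 and pcDNA and 0 for nMBNL1 against siNT, and gave 2 for nMBNL1 against siFmr1 and pcDNA. Calls for nMBNL1 against siNT were also 0 without the low-value filter and 0 with the replicate block. Replicate numbers did not pair the libraries by correlation (-0.63 to 0.70), and the block changed no other member count. For skipped exons the replicate block was not run, since the replicates there carry no label. Exon calls were 1 in the first N2a experiment by the deposited FDR among tested events, 0 with nMBNL1 at 50 reads, 4 there with no minimum difference, 2 with cMBNL1 at 10 reads and 10 there with no minimum difference.

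Leaving out 1 library gave 0 to 2 calls for nMBNL1 against siNT, 1 to 2 for siFmr1 and pcDNA, and 2 to 3 for cMBNL1 against siNT (Celf1 at 0.25, adjusted p = 0.00151, without siNT replicate 2). For exons it gave 0 to 1 with siMbnl1 and pcDNA, 0 to 1 with nMBNL1 and 0 to 2 with cMBNL1. The cause of these changes was not tested.

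Counts over all genes moved by more than 1.5 times under several settings. In KO against WT they went from 3 to 925 (DESeq2), 1277 (all 18 libraries) and 1 (replicate block) in cortex. DESeq2 and the block gave 260 and 1 in place of 31 in hippocampus, 274 and 24 in place of 49 in liver, and 1095 and 31 in place of 512 in muscle. Cerebellum went from 33 to 94 with DESeq2 and 11 with all 18 libraries, testis from 661 to 377 with the block, and the interaction of hippocampus and cerebellum from 1 to 0 with the block. Fitting only the compared groups gave 3658, 2428, 4166 and 3027 against siNT and 2812 and 2854 in the direct comparisons, and a log2 fold change of at least 1 gave 1291, 810, 1348, 889, 40 and 44. With the deposited FDR, called events went from 0 to 8, 2 and 1 in cortex, hippocampus and cerebellum, 13 to 69 in liver, 33 to 95 in muscle, 15 to 65 in testis and 0 to 130 in the first N2a experiment. In the pcDNA, siMbnl1, nMBNL1 and cMBNL1 comparisons they went from 400, 276, 369 and 489 to 799, 938, 563 and 1106. With no minimum difference they were 56 in liver, 79 in muscle, 65 in testis and 922, 579, 1943 and 1794 in those 4 comparisons.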
